A study of Saccharomyces cerevisiae with 20 samples.

Results

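The ATG genes of budding yeast (Saccharomyces cerevisiae) encode the machinery of autophagy, and their mRNAs were followed here in RNA-seq and in 2 methods that capture RNA with an NAD cap. Members were all transcripts whose RefSeq gene symbol is ATG followed by a number, which gave 37 of the 6106 transcripts counted. Of these, 35 carried that name in the deposited table, ATG44 was listed there as MCO8 and ATG45 had no name. ATG6 and ATG24 are called VPS30 and SNX4 in RefSeq and were therefore not members. RNA came from xrn1-H41A cells and from WT cells, both of the laboratory strain background BY4741, harvested in exponential phase from the rich medium YPD, with no treatment. The paper describes the H41A protein as deficient in removing NAD caps while its exoribonuclease activity is kept. Each strain was sampled as 3 biological replicates. Each strain was measured in 3 assays, with 3 libraries each: NADcapPro, SPAAC and standard RNA-seq. The labels call the starting material total RNA and the methods describe polyA RNA for the captures, without stating the input of standard RNA-seq. In bulk RNA of this kind, fewer cells with a transcript and less of it per cell cannot be told apart. In SPAAC, the enzyme ADPRC replaces the nicotinamide of an NAD cap with a clickable group, biotin is attached and the RNA is bound to streptavidin. ADPRC also acts weakly on some m7G caps, the usual cap of mRNA, so NADcapPro first removes m7G caps with the decapping enzyme Dcs1.

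Autophagy wraps a portion of cytoplasm in a double membrane, the autophagosome, and delivers it to the vacuole for breakdown. A kinase complex starts the process, a lipid kinase and the Atg9 vesicles supply and mark membrane, and a pair of ubiquitin-like proteins, Atg8 and Atg12, is conjugated to extend it, while receptors select cargo. In growing yeast the ATG mRNAs are kept low by transcriptional repressors and by mRNA decay, and Xrn1, the main cytoplasmic 5′-3′ exoribonuclease, is among the enzymes known to limit them.

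The ATG mRNAs were scarce. Their mean level in WT RNA-seq in TPM, a share of all transcripts that takes length into account, had a median of 12.4, against 25.16 for all transcripts, and 29 of the 37 lay below that overall median. The highest were ATG44 at 202.3 ± 15.7 TPM (SD, n = 3), which encodes a protein needed to divide mitochondria during mitophagy, and ATG27 at 90.22 ± 0.885 TPM, whose product helps Atg9 to traffic. ATG41 and ATG8 followed at 43.85 ± 2.37 and 42.97 ± 4.54 TPM, a difference smaller than their spread. The lowest were ATG39, which encodes a receptor for autophagy of the nuclear envelope, at 2.096 ± 0.313 TPM, ATG1, the initiating kinase, at 3.058 ± 0.0579 TPM, and ATG9, the lipid scramblase of the membrane source, at 3.785 ± 0.167 TPM. Counts of a member ranged between 33 and 6352 per library, in libraries of 13038320 to 33816015 counts, and all 37 passed the filter on low counts in every comparison. Every 31-base word of every member occurred in no other transcript. Coding lengths ran between 222 and 4779 bases, with a median of 1239 bases for members and 1182 bases for all transcripts.

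Between the strains, the ATG mRNAs did not move as one group. In RNA-seq, 13 were higher and 13 lower in xrn1-H41A cells at an adjusted p of at most 0.01, and 11 did not pass. Over all 5965 transcripts tested, 36.2% were higher and 34.8% were lower, so the members' shares lay near the background in both directions. Their median log2 fold change was -0.002, against 0.003 for all transcripts. With the further requirement of a 2-fold change, the threshold of the study, 4 members were higher (ATG41, ATG12, ATG5 and ATG29; background 7.69%) and 1 was lower (ATG40; background 2.53%). In 14 members every xrn1-H41A library lay above every WT library (background 40.2%), and in 13 every one lay below (background 38.4%). Scaling by library totals in place of TMM moved the median of all transcripts up by 0.18, and then 7 members were at least 2-fold higher and 7 were lower at adjusted p alone. No share over all transcripts is given for that scaling, so these counts have no background. In a further fit the trend of each library on coding length was removed, which kept the call of 23 of the 26 members and the direction of all 26. The exceptions were ATG15, ATG22 and ATG32, named below.

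**Figure D1:**
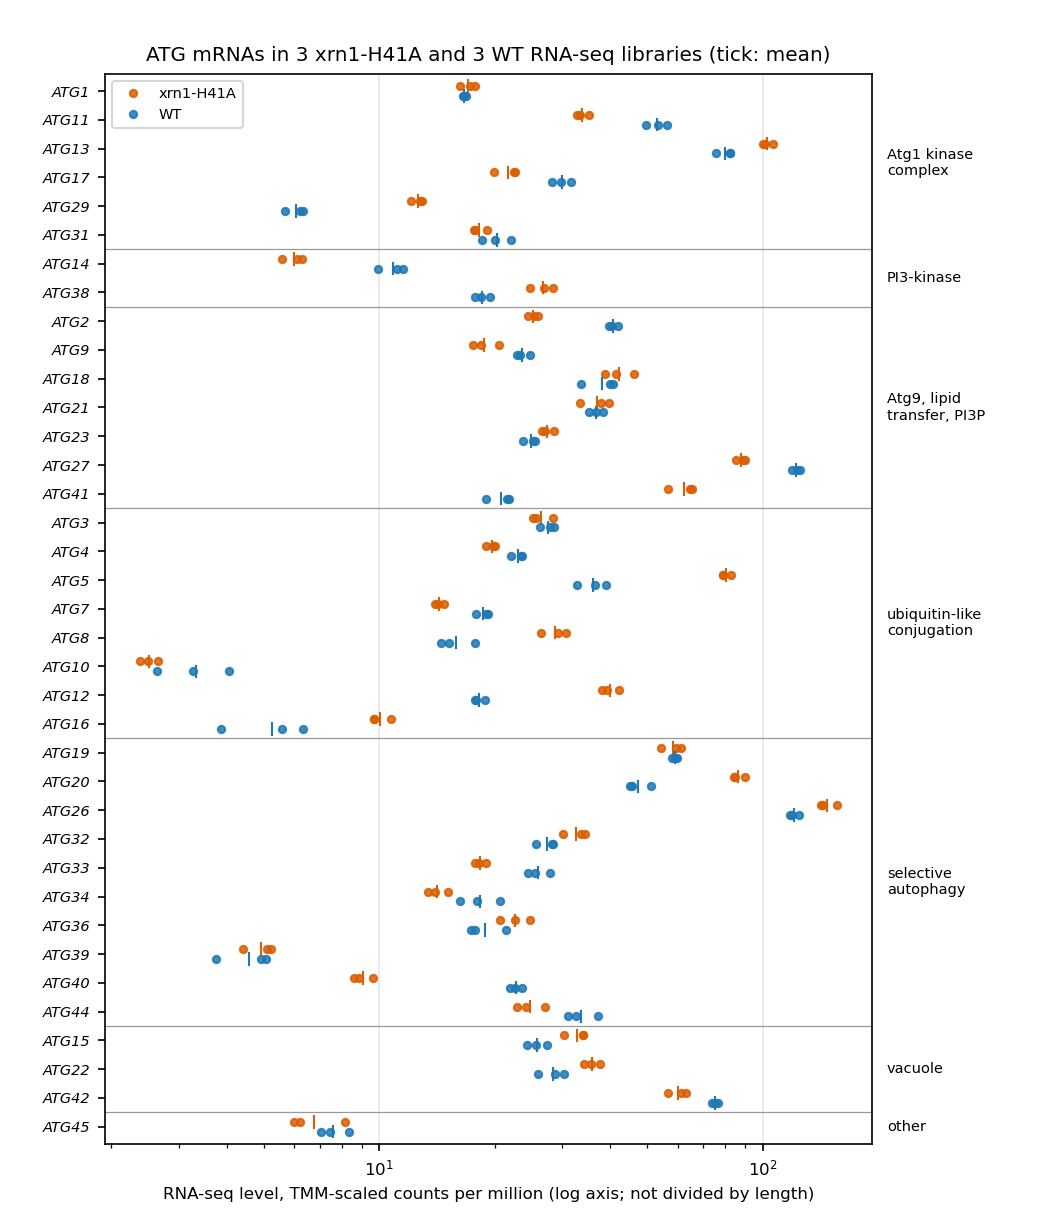
RNA-seq level of each of the 37 ATG mRNAs, in TMM-scaled CPM on a log axis, with the 3 xrn1-H41A libraries (orange) above the 3 WT libraries (blue) and a tick at each mean. ATG41, ATG12, ATG5 and ATG29 lay higher and ATG40 lower in xrn1-H41A with no overlap; levels are not divided by length, so they compare strains within a gene and not genes with each other.

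Levels per library are given below as CPM (library-size-scaled counts) after TMM, a normalization that sets most transcripts level between libraries. Fold changes come from the fit of the groups compared, and differed from the ratio of the mean CPM levels by at most 0.24 on the log2 scale. XRN1 itself, whose mutation is a substitution that counts cannot show, had a log2 fold change of -0.61 between the strains (SE 0.0383, adjusted p = 1.44e-09). With the length trend removed it was -0.35.

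The conjugation machinery joins Atg12 to Atg5 and Atg8 to lipid. Of its 8 genes, 4 were higher in xrn1-H41A cells (background 36.2%), 2 were lower (background 34.8%) and 2 did not pass. ATG12, the ubiquitin-like protein, had 39.4, 42.2 and 38.1 CPM in xrn1-H41A cells, against 18.9, 17.8 and 17.9 CPM in WT cells, a log2 fold change of 1.14 (SE 0.068, adjusted p = 7.75e-10). ATG5, its target in conjugation, had 78.7, 82.5 and 79.0 CPM in xrn1-H41A cells, against 32.8, 39.1 and 36.5 CPM in WT cells, a log2 fold change of 1.13 (SE 0.0563, adjusted p = 1.01e-10). ATG16, which binds that conjugate and brings it to the membrane, had 10.7, 9.71 and 9.72 CPM in xrn1-H41A cells, against 6.32, 5.58 and 3.86 CPM in WT cells. In these 3 genes every xrn1-H41A library lay above every WT library, as in 40.2% of all transcripts. The log2 fold change of ATG16 was 0.99, just under the 2-fold line (SE 0.164, adjusted p = 5.64e-05). ATG8, the protein attached to the autophagosome membrane, had 26.4, 30.6 and 29.3 CPM in xrn1-H41A cells, against 14.5, 17.8 and 15.2 CPM in WT cells, a log2 fold change of 0.85 (SE 0.0901, adjusted p = 5.52e-07). The enzymes that act on them did not follow. ATG7, the activating enzyme, and ATG4, the protease that matures Atg8, fell by 0.39 and by 0.24 on the log2 scale, while the conjugating enzymes ATG3 and ATG10 had log2 fold changes of -0.06 and -0.45 that did not pass (adjusted p = 0.493 and 0.0528). The gene nearest to ATG5, PPT2, lies tail to tail with it at a distance of 100 bases and was also higher in xrn1-H41A, with a log2 fold change of 1.39 (SE 0.0798). The library kits named in the labels and the counting are not described as keeping strand, so reads that run past the end of one of such a pair could be counted for the other. The part of this in the ATG5 value was not tested.

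Among the Atg1 kinase complex and its scaffolds, 2 of 6 genes were higher in xrn1-H41A (background 36.2%), 2 were lower (background 34.8%) and 2 did not pass. ATG1 had 16.2, 17.2 and 17.8 CPM in xrn1-H41A cells, against 16.9, 16.6 and 16.5 CPM in WT cells, and its log2 fold change of 0.03 did not pass (SE 0.0837, adjusted p = 0.768). ATG29, which with Atg17 and Atg31 forms the scaffold of starvation-induced autophagy, had 12.96, 12.8 and 12.1 CPM in xrn1-H41A cells, against 6.32, 5.67 and 6.23 CPM in WT cells. Its log2 fold change was 1.06 (SE 0.116, adjusted p = 7.28e-07), whereas its partner ATG17 fell by 0.45 (SE 0.0761, adjusted p = 7.26e-05) and ATG31 had -0.17 (adjusted p = 0.0919). ATG13, the regulatory subunit that is phosphorylated by TOR signalling in rich medium, was higher by 0.37, and ATG11, the scaffold for selective autophagy, fell by 0.65. ATG29 was the only member whose coding sequence overlapped that of another annotated gene. It runs on the plus strand at chrXVI:237338-237979 (build R64), and its last 24 bases lie in the end of SET6, which runs on the minus strand at chrXVI:237956-239077. The shared stretch, chrXVI:237956-237979, is shown in the sense of ATG29 with the stop codon in capitals, because ATG29 recurs in the results that follow.

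ATG29 and SET6 overlap: ctaatggacagattgcaattcTGA

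SET6 was also higher in xrn1-H41A, with a log2 fold change of 0.71 (SE 0.0928). In the captures described below, SET6 and ATG29 had different values, so these are given beside each other there.

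The PI3-kinase subunits split. ATG14, which directs the lipid kinase Vps34 to the site of autophagosome formation, had 5.60, 6.10 and 6.29 CPM in xrn1-H41A cells, against 9.92, 11.5 and 11.1 CPM in WT cells. It fell by 0.88 on the log2 scale (SE 0.123, adjusted p = 1.12e-05), while ATG38, a linker of the same complex, was higher by 0.53 (SE 0.0795, adjusted p = 2.22e-05).

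Of the 7 genes for Atg9 vesicles, lipid transfer and lipid binding, 1 was higher (background 36.2%), 3 were lower (background 34.8%) and 3 did not pass. ATG41, which acts in Atg9 movement and is one of the most starvation-responsive genes of the family, had 64.6, 65.3 and 56.8 CPM in xrn1-H41A cells, against 19.0, 21.8 and 21.5 CPM in WT cells. This log2 fold change of 1.57 was the highest of the 37 (SE 0.0698, adjusted p = 2.91e-11). ATG2, the protein that carries lipids into the growing membrane, had 25.3, 24.5 and 26.0 CPM in xrn1-H41A cells, against 41.9, 40.4 and 39.8 CPM in WT cells, and fell by 0.69 (SE 0.0602, adjusted p = 6.06e-08). ATG9 had 20.5, 17.6 and 18.4 CPM in xrn1-H41A cells, against 24.7, 23.3 and 22.9 CPM in WT cells. Its fall of 0.32 (SE 0.0831, adjusted p = 0.00266) no longer passed without WT RNA-seq replicate 1 (adjusted p = 0.0106), without xrn1-H41A RNA-seq replicate 2 (adjusted p = 0.0153) or with library totals alone (adjusted p = 0.143). ATG27 fell by 0.48 (adjusted p = 2.5e-08), and the phosphoinositide-binding proteins ATG18 and ATG21 had log2 fold changes of 0.12 and 0.00 that did not pass.

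The 10 genes for cargo selection held the largest fall. ATG40, the receptor for autophagy of the endoplasmic reticulum, had 8.61, 8.89 and 9.66 CPM in xrn1-H41A cells, against 23.6, 22.5 and 21.9 CPM in WT cells, and fell by 1.33 on the log2 scale (SE 0.0922, adjusted p = 4.37e-09). The members of this group that were higher were ATG20, a sorting nexin (0.88, adjusted p = 1.12e-09), ATG26, a sterol glucosyltransferase (0.29, adjusted p = 2.08e-05), and ATG32, the mitophagy receptor (0.26, adjusted p = 0.00473), which no longer passed with the length trend removed (0.13, adjusted p = 0.121). ATG33, ATG34 and ATG44 fell by 0.51, 0.35 and 0.44. ATG19, the receptor for vacuolar enzymes, ATG36, the receptor for peroxisomes, and ATG39 did not pass (-0.02, 0.28 and 0.06). In the vacuole group, the lipase ATG15 and the amino acid exporter ATG22 were higher by 0.35 and 0.32, and ATG42, a carboxypeptidase, fell by 0.32. ATG15 and ATG22 had 0.22 and 0.19 with the length trend removed and no longer passed (adjusted p = 0.0113 and 0.0195). ATG45, a glycogen receptor, had a log2 fold change of -0.16 that did not pass.

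The stretches before the start codons were searched for 4 motifs of factors known to control ATG genes, chosen after the values were seen. Within 300 bases of the start, on both strands, the Ume6 core AGCCGCC occurred in 0 of the 37 members and in 2.3% of the 6020 genes searched. The Gcn4 core TGACTC occurred in 5 members (7.7% of all genes), the GATA motif GATAAG in 12 (14.6%) and the stress element AGGGG in 11 (22.2%). Matches are given as letters in a window and not as bound sites. ATG29 and ATG8, both higher in xrn1-H41A, were the members that held each of the last 3 motifs, and their matches are printed for that reason, in the sense of the gene with the motif or its reverse complement in capitals. Those of ATG29 lie at chrXVI:237136-237165, chrXVI:237269-237298 and chrXVI:237252-237281 on the plus strand, and those of ATG8 at chrII:80944-80973, chrII:80774-80803, chrII:80805-80834 and chrII:80782-80811 on the minus strand (build R64).

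ATG29, Gcn4: gtagttttgtatTGACTCaaatactttctc
ATG29, GATA: tgttagtgaataCTTATCaagaagagacat
ATG29, stress element: aggtgaaaataaAGGGGtgttagtgaatac
ATG8, Gcn4: acgtttaagttaGAGTCAtgtaatgctaac
ATG8, GATA: gaggaggggattGATAAGagaatctaataa
ATG8, stress element: ggaaatacaaaaAGGGGaaccattaaaggt
ATG8, stress element, other copy: taaaggttgaggAGGGGattgataagagaa

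The GATA and stress matches nearest to the start of ATG8 lie within one stretch, while those of ATG29 lie in overlapping stretches of which neither holds both. Of the other members that rose as much as ATG8 or more, ATG12, ATG5, ATG16 and ATG41 held none of the 4 motifs and ATG20 held a stress element. ATG40, which fell most, held GATAAG alone. Other members with a match went in both directions. With TGACTC, ATG4 and ATG42 fell and ATG21 did not pass. With GATAAG, ATG4, ATG9, ATG14 and ATG33 fell, ATG15 and ATG32 were higher, and ATG18, ATG19 and ATG39 did not pass. With AGGGG, ATG9, ATG34 and ATG42 fell, ATG20, ATG26 and ATG32 were higher, and ATG10, ATG19 and ATG39 did not pass.

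NADcapPro was compared with RNA-seq of the same strain. In xrn1-H41A cells, 4 members were at least 2-fold higher in NADcapPro (background 14.3%) and 1 was at least 2-fold lower (background 9.87%). In WT cells, 4 were at least 2-fold higher (background 13.1%) and 2 were at least 2-fold lower (background 9.85%). The members' median log2 fold changes were 0.15 in xrn1-H41A and 0.14 in WT, against 0.02 and 0.01 for all transcripts. At adjusted p alone, 14 were higher (background 43%) and 12 lower (background 41.4%) in xrn1-H41A, and 16 were higher (background 41.1%) and 10 lower (background 40.5%) in WT. Across both strains, 11 were higher in each (background 31.6%), 7 were lower in each (background 31.3%) and 1 passed in opposite directions (background 8.49%), which was ATG42 (-0.20 in xrn1-H41A and 0.16 in WT). ATG42 no longer passed in xrn1-H41A with the length trend removed (-0.15, adjusted p = 0.0104). These fits of the strains share no library, and the signs matched in 31 of the 37 members (background 78.7%). NADcapPro over RNA-seq fell with coding length, as described with SPAAC below. Without that trend, 19 of the 26 calls in xrn1-H41A and 17 of the 26 in WT kept their direction and passed, and 6 members in xrn1-H41A and 7 in WT passed that had not before. Removing the trend also moved the median of all transcripts, by -0.10 in xrn1-H41A and -0.17 in WT. Values without the trend are given below beside several of the members described.

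**Figure D2:**
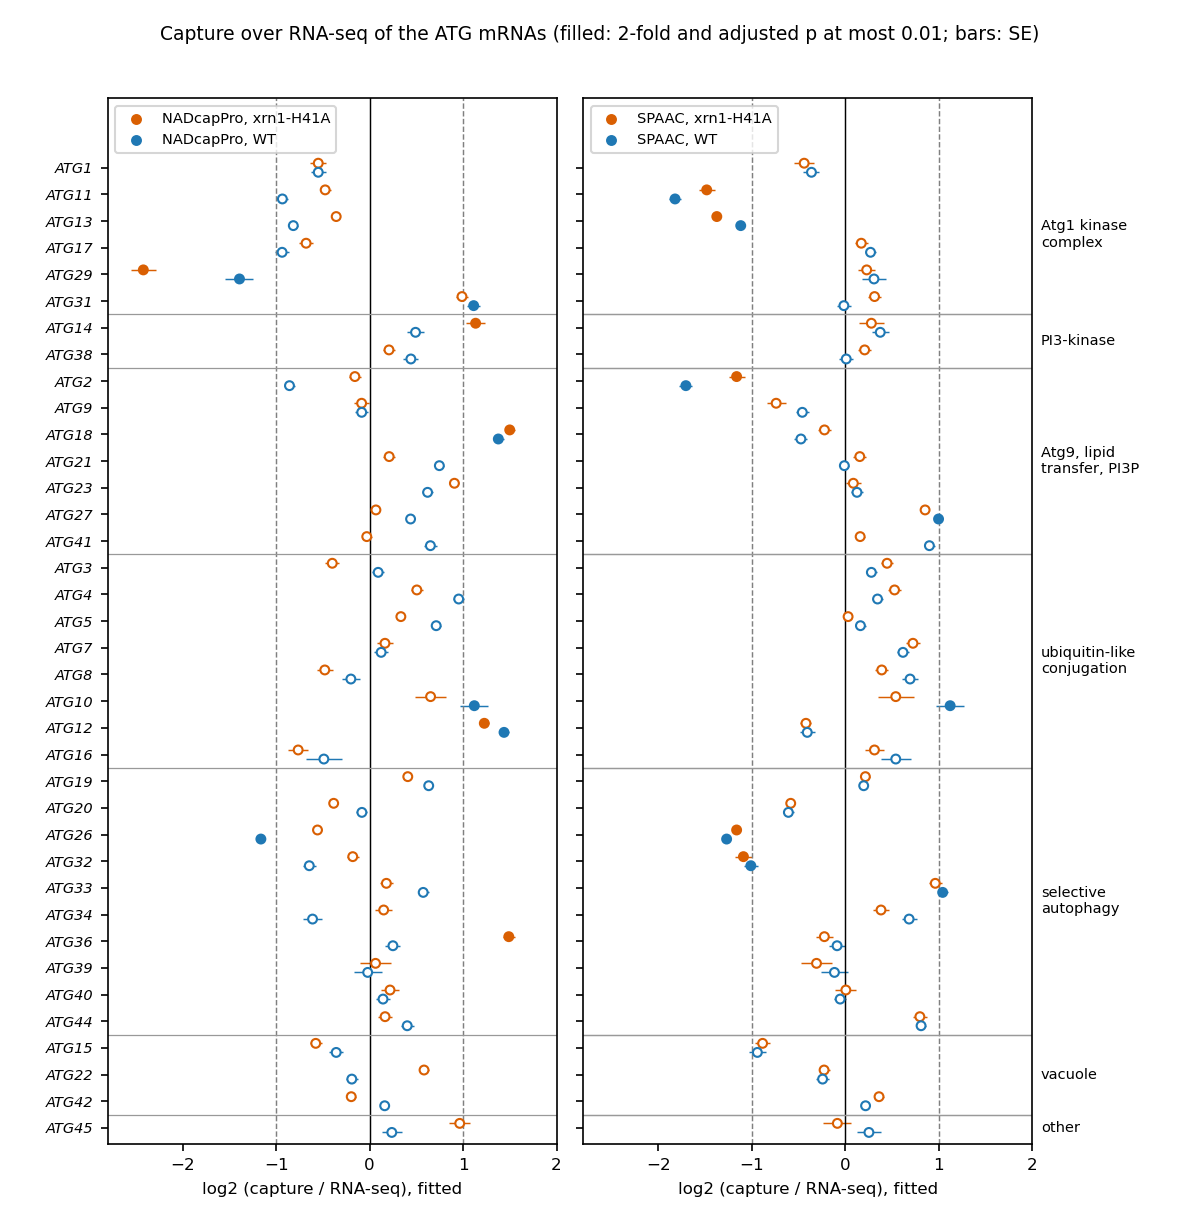
Fitted log2 ratio of capture over RNA-seq for each ATG mRNA, NADcapPro on the left and SPAAC on the right, xrn1-H41A (orange) above WT (blue), with bars of 1 SE and filled points where the change was at least 2-fold at an adjusted p of at most 0.01. ATG12 and ATG18 lay right of the 2-fold line and ATG29 left of it in NADcapPro of both strains, while in SPAAC ATG11, ATG13, ATG2, ATG26 and ATG32 lay left of it.

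The members at least 2-fold higher in NADcapPro of both strains (background 8.37%) were ATG12 and ATG18, whose product binds the lipid made by the PI3-kinase. In xrn1-H41A cells ATG12 had 88.6, 92.6 and 90.7 CPM in NADcapPro, against the RNA-seq levels given above, a log2 fold change of 1.23 (SE 0.0459, adjusted p = 2.27e-12). In WT cells ATG12 had 50.4, 48.0 and 48.8 CPM in NADcapPro, a log2 fold change of 1.44 (SE 0.0561, adjusted p = 1.18e-11). ATG12 is short, and with the trend of each library on coding length removed its values were 0.90 and 0.97, still past the test but under the 2-fold line. In xrn1-H41A cells ATG18 had 111, 112 and 119.8 CPM in NADcapPro and 38.9, 41.5 and 46.3 CPM in RNA-seq, a log2 fold change of 1.499 (SE 0.0548, adjusted p = 1.8e-12). In WT cells ATG18 had 98.2, 98.8 and 104 CPM in NADcapPro and 33.7, 40.1 and 40.6 CPM in RNA-seq, a log2 fold change of 1.38 (SE 0.0557, adjusted p = 1.75e-11). Its close relative ATG21 had log2 fold changes of 0.21 in xrn1-H41A and 0.75 in WT. ATG18 stayed at least 2-fold higher in both strains with the length trend removed (1.54 and 1.41).

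ATG29 went the other way. In NADcapPro it had 2.59, 2.43 and 1.87 CPM in xrn1-H41A cells and 2.26, 2.06 and 2.58 CPM in WT cells, so the captured levels of the strains overlapped although their RNA-seq levels did not. Relative to RNA-seq it fell by 2.42 on the log2 scale in xrn1-H41A (SE 0.132, adjusted p = 1.69e-10) and by 1.39 in WT (SE 0.15, adjusted p = 8.12e-07), the lowest values of the 37 in both strains. Its neighbour SET6 had 0.50 in xrn1-H41A and 0.22 in WT. Removing the length trend gave -2.74 and -1.85 for ATG29, which thus stayed at least 2-fold lower in both strains. It was the 1 member at least 2-fold lower in both (background 4.63%). The partners in its complex differed, since ATG31 was higher by 0.99 in xrn1-H41A and 1.11 in WT, while ATG17 fell by 0.68 and 0.94 in NADcapPro of the same strains. ATG17 had 12.6, 13.8 and 13.02 CPM in NADcapPro of xrn1-H41A cells and 16.5, 14.8 and 15.2 CPM in NADcapPro of WT cells, below its RNA-seq level in every library. ATG31, just under the 2-fold line in xrn1-H41A, also lay under it in WT with the length trend removed (0.67 in xrn1-H41A and 0.65 in WT), and its tail-to-tail neighbour FAL1, 69 bases away, had 0.69 and 0.77.

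Both PI3-kinase members were higher in NADcapPro of both strains (background 31.6%). ATG14 had 12.7, 12.2 and 13.02 CPM in NADcapPro of xrn1-H41A cells, a log2 fold change of 1.13 (SE 0.0981, adjusted p = 4.04e-08), and 15.2, 14.6 and 16.5 CPM in NADcapPro of WT cells, a log2 fold change of 0.49 (SE 0.0913, adjusted p = 0.000181). With the length trend removed these were 0.93 and 0.21, and the second no longer passed (adjusted p = 0.0413). ATG38 was higher by 0.21 in xrn1-H41A and by 0.44 in WT, and neither value passed without the trend (-0.10 and -0.003, adjusted p = 0.141 and 0.97). Of the 6 genes of the Atg1 complex, 5 were lower in NADcapPro of each strain, ATG1 by 0.55 in both, and ATG31 alone was higher. Over all transcripts, 41.4% were lower and 43% higher in xrn1-H41A, and 40.5% were lower and 41.1% higher in WT. Without the length trend, ATG17 and ATG29 stayed lower in xrn1-H41A and ATG13, ATG17 and ATG29 in WT. ATG1 then had -0.14 in xrn1-H41A and 0.06 in WT, and ATG11 had -0.04 and -0.14, none of which passed. ATG1 had 12.2, 11.3 and 10.3 CPM in NADcapPro of xrn1-H41A cells and 10.9, 11.4 and 11.8 CPM in NADcapPro of WT cells. In the conjugation group, 4 of 8 were higher in each strain (ATG4, ATG5, ATG10 and ATG12), 3 were lower in xrn1-H41A (ATG3, ATG8 and ATG16) and 0 were lower in WT. The shares over all transcripts are those just given. Without the length trend ATG3, ATG8 and ATG16 were lower in both strains, with -0.66, -0.91 and -1.14 in xrn1-H41A and -0.25, -0.68 and -0.97 in WT, ATG7 was higher in both, and ATG5 and ATG10 no longer passed in xrn1-H41A (0.06 and 0.30). ATG16 had 5.69, 5.70 and 5.83 CPM in NADcapPro of xrn1-H41A cells and fell by 0.76 there (adjusted p = 6.56e-06), whereas its value in WT, -0.49, did not pass (adjusted p = 0.0277). ATG8 had 18.6, 18.7 and 22.4 CPM in NADcapPro of xrn1-H41A cells and fell by 0.48 there (SE 0.0826, adjusted p = 6.98e-05), and its value in WT, -0.20, did not pass (adjusted p = 0.0573). The difference between the strains did not pass for ATG16 or ATG8 (interactions of -0.26 and -0.27, adjusted p = 0.287 and 0.0808). ATG10 had 3.33, 4.30 and 3.79 CPM in NADcapPro of xrn1-H41A cells, against 2.65, 2.38 and 2.49 CPM in RNA-seq, a log2 fold change of 0.65. In WT cells ATG10 had 7.57, 7.52 and 7.47 CPM in NADcapPro, against 2.64, 3.26 and 4.07 CPM in RNA-seq, a log2 fold change of 1.12, which was 0.65 with the length trend removed. ATG26 fell by 0.56 in xrn1-H41A and by 1.16 in WT, where it had 53.8, 55.0 and 52.8 CPM in NADcapPro and 119, 125 and 118 CPM in RNA-seq. With the length trend removed the fall of ATG26 in WT was 0.37 on the log2 scale. ATG9 had 17.0, 17.7 and 16.8 CPM in NADcapPro of xrn1-H41A cells and 22.8, 22.7 and 21.0 CPM in NADcapPro of WT cells, and its log2 fold change over RNA-seq, -0.09 in each, did not pass. ATG9 was higher in both strains without the length trend, by 0.35 in xrn1-H41A (adjusted p = 0.000405) and by 0.61 in WT (adjusted p = 6.65e-07).

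Whether capture differed between the strains was tested as an interaction, the log2 fold change of NADcapPro over RNA-seq in xrn1-H41A minus that in WT. At adjusted p alone 11 members were higher (background 33.7%) and 11 lower (background 30.2%), and at 2-fold there was 1 in each direction (background 4.19% higher and 2.94% lower). The member with the higher capture in the mutant was ATG36, the pexophagy receptor. In NADcapPro it had 59.4, 60.3 and 63.1 CPM in xrn1-H41A cells and 21.7, 22.3 and 22.1 CPM in WT cells. In RNA-seq it had 20.6, 22.6 and 24.8 CPM in xrn1-H41A cells and 21.4, 17.3 and 17.8 CPM in WT cells, which overlap. The fold over RNA-seq was 1.49 in xrn1-H41A and 0.25 in WT on the log2 scale, and the difference was 1.25 (SE 0.101, adjusted p = 3.55e-09). It stayed between 1.16 and 1.30 with each of the 12 libraries left out in turn and was 1.32 with the length trend removed, but it was not shown to exceed 2-fold when tested against that size (adjusted p = 0.0842). MNN5, 180 bases away and tail to tail with ATG36, had an interaction of 0.43. ATG29 had the lower capture in the mutant, with a difference of -1.01 (SE 0.201, adjusted p = 0.000201). It ranged between -1.11 and -0.88 over the left-out libraries and was -0.89 with the length trend removed, so its place at the 2-fold line depended on the setting and its direction did not. Below 2-fold, ATG22, ATG34, ATG45, ATG2 and ATG14 had interactions of 0.79, 0.78, 0.74, 0.71 and 0.66, and ATG41, ATG21, ATG3, ATG4 and ATG33 had -0.67, -0.52, -0.48, -0.43 and -0.38. Of the 22 members past the test, 18 still passed with the length trend removed, and ATG2 (0.19, adjusted p = 0.061), ATG33 (-0.25, adjusted p = 0.0158), ATG11 and ATG19 did not.

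**Figure D3:**
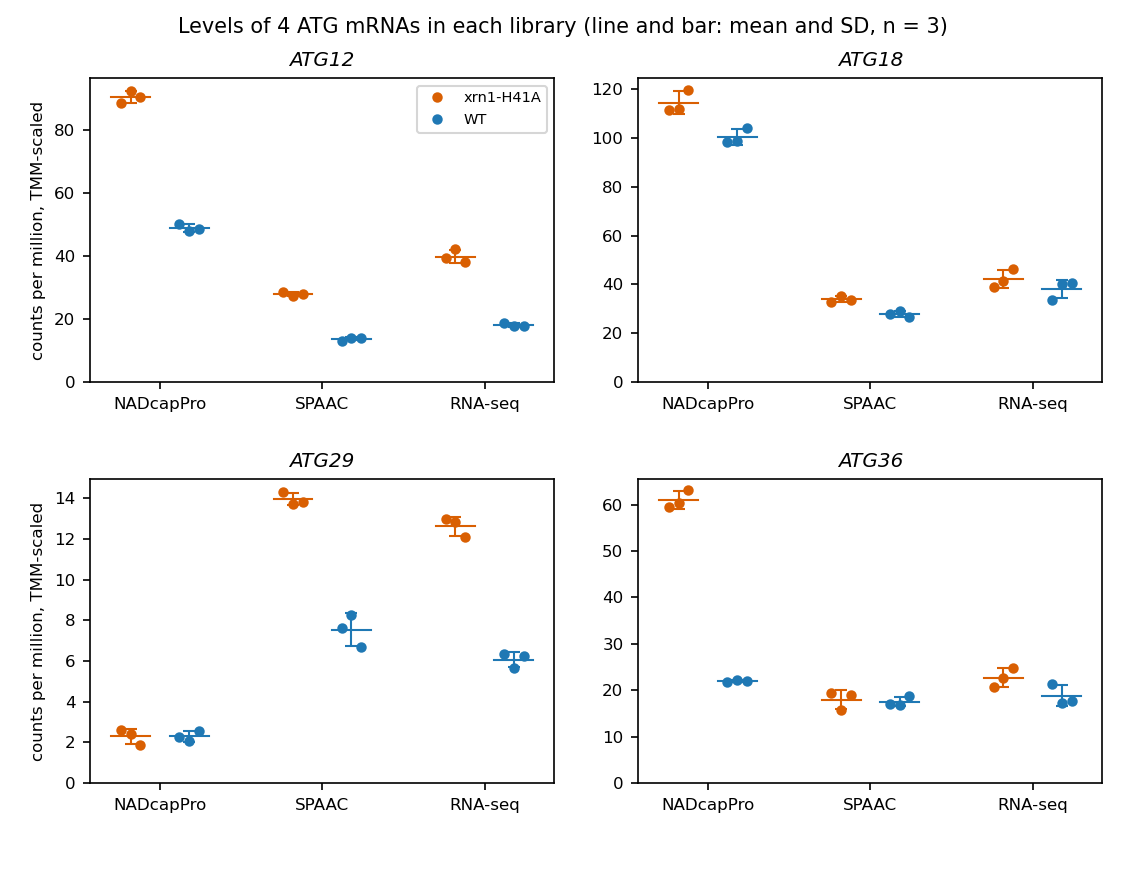
Levels of ATG12, ATG18, ATG29 and ATG36 in each of the 18 libraries, in TMM-scaled CPM, for NADcapPro, SPAAC and RNA-seq, with xrn1-H41A (orange) left of WT (blue) and lines and bars at the mean and SD of 3 libraries. ATG36 stood at 59.4 to 63.1 CPM in NADcapPro of xrn1-H41A and under 25 CPM in the other groups, and ATG29 was low in NADcapPro of both strains.

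SPAAC, which lacks the Dcs1 step, gave another picture. In xrn1-H41A cells 0 members were at least 2-fold higher than in RNA-seq by edgeR's quasi-likelihood test (background 4.39%), although 11 were higher at adjusted p alone (background 39%) and 12 were lower (background 38.6%), and 5 were at least 2-fold lower (background 13.8%). DESeq2 also gave 0 higher, and the highest member stood at 0.97. Without SPAAC replicate 1 of xrn1-H41A, 1 member was at least 2-fold higher. In WT cells 3 were at least 2-fold higher (background 4.77%) and 5 were at least 2-fold lower (background 15.9%), and at adjusted p alone 15 were higher (background 39.9%) and 12 were lower (background 39.6%). The members' medians were 0.16 in xrn1-H41A and 0.13 in WT, against 0.00 and 0.02 for all transcripts. Across both strains of SPAAC, 10 were higher in each (background 34.6%), 12 were lower in each (background 34.1%), 0 passed in opposite directions (background 1.11%) and 0 were at least 2-fold higher in each (background 3.23%), with matching signs in 33 of the 37 (background 89.4%). The same 5 members were at least 2-fold lower in both strains (background 12.2%), namely ATG11, ATG13, ATG2, ATG26 and ATG32. ATG11 had 11.1, 12.999 and 10.3 CPM in SPAAC of xrn1-H41A cells, against 35.3, 32.9 and 33.3 CPM in RNA-seq, and fell by 1.48 (SE 0.0835, adjusted p = 5.66e-10). In WT cells ATG11 had 14.5, 14.8 and 15.95 CPM in SPAAC, against 53.4, 56.4 and 49.6 CPM in RNA-seq, and fell by 1.82 (SE 0.0668, adjusted p = 2.28e-12). ATG2 had 9.79, 10.7 and 11.8 CPM in SPAAC of xrn1-H41A cells and 12.8, 11.4 and 13.3 CPM in SPAAC of WT cells, and fell by 1.16 and by 1.70 relative to RNA-seq of those strains. ATG13 fell by 1.37 in xrn1-H41A, with 37.7, 35.7 and 38.6 CPM in SPAAC against 106, 102 and 100.2 CPM in RNA-seq, and by 1.12 in WT. ATG26 fell by 1.16 and 1.27, and had 60.4, 66.0 and 60.2 CPM in SPAAC of xrn1-H41A cells and 50.1, 47.2 and 53.7 CPM in SPAAC of WT cells. ATG32 fell by 1.09 and 1.01.

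These are long transcripts, and the fold changes of SPAAC over RNA-seq fell with coding length. Across the 37 members the rank correlation (Spearman) of log2 fold change with length was -0.62 in xrn1-H41A and -0.71 in WT, against -0.57 over 5968 and -0.64 over 5979 transcripts. For NADcapPro it was -0.27 in xrn1-H41A and -0.46 in WT across the members, against -0.35 over 6046 and -0.50 over 6020 transcripts. These are descriptions across genes that share the same libraries. With the length trend removed, 0 of the 5 stayed at least 2-fold lower in SPAAC of either strain, and ATG2 and ATG26 reversed. ATG2 then had 0.71 in xrn1-H41A and 0.35 in WT, and ATG26 had 0.20 and 0.26, while ATG32 had -0.996 in xrn1-H41A and -0.87 in WT, and ATG13 had -0.845 and -0.48. ATG11, the member that fell most, had -0.15 in xrn1-H41A, which did not pass (adjusted p = 0.106), and -0.32 in WT. Over all members, 11 of the 23 SPAAC calls in xrn1-H41A and 15 of the 27 in WT kept their direction and passed without the trend. A further 6 in xrn1-H41A and 5 in WT reversed, of which 3 and 4 passed in the other direction. The direction of SPAAC for the members that reversed is therefore not fixed by these data. Removing the trend also moved the median of all transcripts by -0.14 in each strain. The part of this shift in the reversals was not tested.

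**Figure D4:**
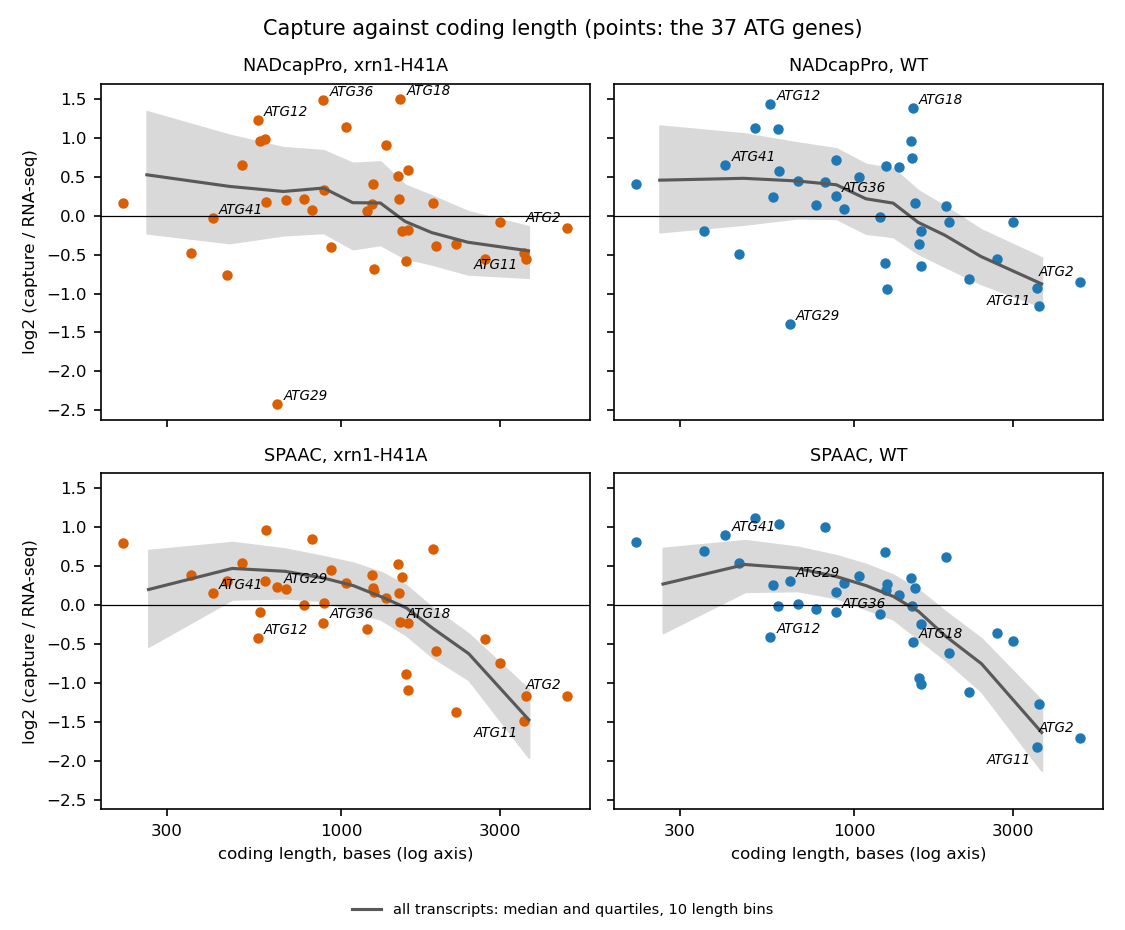
Log2 fold change of capture over RNA-seq against coding length in bases on a log axis, for the 37 ATG genes (points) and as the median and quartiles of all transcripts in 10 length bins (line and band), with NADcapPro above and SPAAC below and xrn1-H41A left of WT. The bands fall with length, ATG11 lies within them in SPAAC, and ATG29 and ATG18 lie outside them in NADcapPro of both strains.

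The 3 members at least 2-fold higher in SPAAC of WT, ATG33, ATG27 and ATG10, have coding lengths of 594, 816 and 504 bases, below the members' median. ATG7, ATG42 and ATG4 were also higher in SPAAC of both strains at adjusted p alone and are longer, at 1893, 1527 and 1485 bases. ATG33, which takes part in mitophagy, had 31.6, 35.6 and 34.5 CPM in SPAAC of xrn1-H41A cells, against 19.0, 17.7 and 18.2 CPM in RNA-seq, a log2 fold change of 0.97 (SE 0.07, adjusted p = 9.33e-09). In WT cells ATG33 had 52.6, 54.4 and 55.9 CPM in SPAAC, against 24.5, 25.5 and 27.9 CPM in RNA-seq, a log2 fold change of 1.04 (SE 0.0539, adjusted p = 1.18e-10). ATG27 had 146, 149 and 154 CPM in SPAAC of xrn1-H41A cells and 251, 246 and 241 CPM in SPAAC of WT cells, with log2 fold changes of 0.86 and 1.00. ATG10 had 3.85, 3.45 and 2.83 CPM in SPAAC of xrn1-H41A cells, where its log2 fold change of 0.54 did not pass (adjusted p = 0.0166), and 7.56, 7.45 and 7.71 CPM in SPAAC of WT cells, a log2 fold change of 1.12 (adjusted p = 5.59e-06). With the length trend removed, ATG33, ATG27 and ATG10 had 0.56, 0.60 and 0.63 in WT, and ATG7 was the member at least 2-fold higher, at 1.04 in xrn1-H41A and 1.01 in WT. ATG44 had 41.7, 44.0 and 36.2 CPM in SPAAC of xrn1-H41A cells, against 24.2, 27.1 and 22.9 CPM in RNA-seq, a log2 fold change of 0.80. ATG8 had 36.1, 33.4 and 36.8 CPM in SPAAC of xrn1-H41A cells and 25.0, 27.2 and 25.6 CPM in SPAAC of WT cells, and was higher than in RNA-seq by 0.39 and 0.70. These values of ATG8 were -0.03 and 0.22 without the length trend and did not pass. ATG1 fell by 0.44 in SPAAC of xrn1-H41A and by 0.36 in that of WT, and ATG9 fell by 0.74 and by 0.46. These too reversed without the trend. ATG1 then had 0.41 in xrn1-H41A (adjusted p = 0.00409) and 0.62 in WT (adjusted p = 1.53e-05), and ATG9 had 0.296 in xrn1-H41A, which did not pass (adjusted p = 0.0126), and 0.72 in WT (adjusted p = 3.72e-07). ATG14 had 7.36, 6.77 and 6.09 CPM in SPAAC of xrn1-H41A cells, where its log2 fold change of 0.28 did not pass (adjusted p = 0.0661), and 0.38 in WT (adjusted p = 0.00168), which was 0.10 and did not pass without the trend. No member differed between the strains by 2-fold in SPAAC (interaction, 0 in each direction by edgeR and by DESeq2; background 0.0998% higher and 0.566% lower), although ATG2 at adjusted p alone had an interaction of 0.46 (background higher 9.55%), and ATG41, ATG8, ATG13 and ATG27 had -0.83, -0.39, -0.34 and -0.23 (background lower 14%). Without the length trend those of ATG2, ATG8 and ATG27 no longer passed (adjusted p = 0.0106, 0.0629 and 0.0879). Of these 5 interactions, 3 passed with DESeq2 and as few as 2 passed with a single library left out, while 0 reversed. The interaction was fitted on the groups of both strains together with their own scaling, so it need not equal the difference of the values given for each strain.

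Set directly against SPAAC, NADcapPro was compared for each mRNA within a strain. In xrn1-H41A cells 3 members were at least 2-fold higher in NADcapPro than in SPAAC (background 18.7%) and 5 at least 2-fold lower (background 17.8%). In WT cells 2 were at least 2-fold higher (background 13.3%) and 5 at least 2-fold lower (background 11.3%). ATG12 and ATG18 were at least 2-fold higher in both strains (background 10%), ATG12 by 1.48 in xrn1-H41A and 1.69 in WT and ATG18 by 1.55 and 1.70, and ATG36 was higher by 1.54 in xrn1-H41A and by 0.19 in WT. In SPAAC, ATG12 had 28.7, 27.5 and 28.1 CPM in xrn1-H41A cells and 13.2, 14.0 and 14.0 CPM in WT cells, below its RNA-seq level in every library. ATG29, ATG16, ATG17 and ATG8 were at least 2-fold lower in NADcapPro than in SPAAC of both strains (background 8.31%), with log2 fold changes of -2.82 in xrn1-H41A and -1.85 in WT for ATG29, -1.25 and -1.18 for ATG16, -1.021 and -1.35 for ATG17, and -1.04 in each for ATG8. ATG29 had 14.3, 13.7 and 13.8 CPM in SPAAC of xrn1-H41A cells and 7.64, 8.28 and 6.68 CPM in SPAAC of WT cells, close to its RNA-seq levels. The fifth member was ATG3 in xrn1-H41A (-1.016) and ATG34, the receptor for alpha-mannosidase in starvation, in WT (-1.44). ATG17 and ATG3 were under the 2-fold line in xrn1-H41A without the length trend, at -0.81 and -0.83. These counts depended on the scaling, since library totals alone shifted the median of all transcripts by 0.81 in xrn1-H41A and 0.60 in WT, and then 15 and 9 members were at least 2-fold higher and 1 in each strain at least 2-fold lower. The backgrounds above belong to TMM scaling and do not apply to the counts with library totals, for which none is given.

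Of the 37 members, 17 passed 2-fold in at least one of the strain comparison and the 4 captures over RNA-seq (background 50.9%), and 20 passed in none. ATG39, the member with the lowest TPM, passed no test in any of the 9 comparisons, and ATG40 passed only between the strains in RNA-seq. With the length trend removed, ATG40 was also lower than in RNA-seq in NADcapPro of WT (-0.27, adjusted p = 0.00628). It was then lower in SPAAC too, by 0.37 in xrn1-H41A (adjusted p = 0.00821) and by 0.48 in WT (adjusted p = 1.71e-05). ATG40 was lower in xrn1-H41A in the captures as well, with 10.9, 9.65 and 9.85 CPM in NADcapPro of xrn1-H41A cells and 26.6, 25.7 and 22.4 CPM in NADcapPro of WT cells, and its interactions of 0.09 and -0.02 did not pass. ATG41 differed less between the strains in the captures, with 60.4, 55.9 and 61.4 CPM in NADcapPro of xrn1-H41A cells and 32.0, 32.7 and 34.1 CPM in NADcapPro of WT cells, and with 64.7, 65.0 and 68.1 CPM in SPAAC of xrn1-H41A cells and 38.3, 39.9 and 40.0 CPM in SPAAC of WT cells. Its interactions were -0.67 in NADcapPro (adjusted p = 2.56e-06) and -0.83 in SPAAC (adjusted p = 5.81e-07).

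A list of 40 other genes of the pathway (PI3-kinase partners, cargo, fusion and vacuolar breakdown, and regulators) was given the same tests. Between the strains, 15 were higher (background 36.2%) and 12 lower (background 34.8%) in xrn1-H41A RNA-seq and 13 did not pass. PRB1, the vacuolar protease B, was the 1 member of the list past 2-fold, with a log2 fold change of 1.23 (SE 0.0467, adjusted p = 5.29e-12), and VPS30 and SNX4, which are also known as ATG6 and ATG24, were both higher by 0.47. VPS15, the regulatory partner of Vps34, fell by 0.91, and had -0.68 without the length trend. In NADcapPro, 10 were higher (background 43%) and 25 lower (background 41.4%) in xrn1-H41A, and 11 were higher (background 41.1%) and 28 lower (background 40.5%) in WT. In SPAAC 9 were higher (background 39%) and 27 lower (background 38.6%) in xrn1-H41A, and 5 were higher (background 39.9%) and 28 lower (background 39.6%) in WT. Without the length trend these counts were 18 higher (background 41.3%) and 15 lower (background 40.2%) in NADcapPro of xrn1-H41A. In NADcapPro of WT they were 19 (background 39.3%) and 15 (background 38.4%). For SPAAC they were 14 (background 36.7%) and 14 (background 33%) in xrn1-H41A, and 14 (background 36.5%) and 16 (background 32.9%) in WT. DHH1, a helicase of mRNA decay, fell by 2.19 in NADcapPro of xrn1-H41A and by 2.34 in that of WT. Without the length trend DHH1 had -2.15 in xrn1-H41A and -2.29 in WT. PRB1, which was higher in xrn1-H41A RNA-seq, then had -2.41 in NADcapPro of xrn1-H41A and -1.42 in that of WT. GAT1, a GATA activator of nitrogen-responsive genes, was at least 2-fold higher in NADcapPro of xrn1-H41A (1.23), and NPR3, an inhibitor of TOR signalling, had a NADcapPro interaction of 1.08, which was 0.72 without the length trend. In that interaction 1 gene of the list was at least 2-fold higher (background 4.19%) and 1 was at least 2-fold lower (background 2.94%). Without the length trend, the fusion gene YPT7 had an interaction of -0.94, PRB1 one of -0.985 and GCN4 one of 1.07.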

How the data were processed

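RNA was measured in 18 libraries, 3 in each of the 6 groups of strain and assay; p-values measure the spread between these libraries. The authors deposited estimated counts per transcript, which are whole numbers, with transcript lengths and TPM, after removing reads that hisat2 aligned to rRNA. The submitters' processing notes name fastp 0.23.2, Kallisto 0.48.0 and build R64. TPM was recomputed from counts and effective lengths. Each comparison was fitted on all transcripts in R 4.3.3 with edgeR 4.0.16 (glmQLFit, glmQLFTest, TMM, filterByExpr), with Benjamini-Hochberg adjusted p of at most 0.01 and, for 2-fold calls, a log2 fold change of at least 1. Alternatives were DESeq2 1.42.0 with and without apeglm 1.24.0, its size factors, library totals, no filter, at least 10 counts, a test against 2-fold, all 18 libraries in one fit, a replicate block, removal of the length trend (lowess, span 0.3) and each library left out. The fits were run on simulated data with planted changes well past 2-fold, which does not bear on calls near that line or at adjusted p alone. Tables were handled in Python 3.11.15. The 6098 transcripts found in the reference had the deposited lengths, and sequences and positions are from RefSeq, build R64. Values per library are given for members past 2-fold between strains or in an interaction, the 3 highest and 3 lowest in the strain and capture comparisons, and ATG1, ATG8, ATG9 and ATG14. The members and lists were chosen with earlier results of these data known, and the motifs after the values were seen. The sample titles name a negative control for each strain, but the 2 libraries without ADPRC carry no strain in the deposited table. They were not used, so the captures were not compared with a background without ADPRC.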

Additional observations from a re-analysis of the deposited data

Results flagged for a closer look

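The effect of NADcapPro differed between the strains, by the test of the interaction against no difference, with a fitted size of at least 2-fold in 2 members. ATG36 had a difference of 1.25 on the log2 scale (higher capture in xrn1-H41A) and ATG29 one of -1.01 (lower capture in xrn1-H41A). Tested against a 2-fold difference itself, 0 members passed in either direction. A further 20 members passed the test against no difference at a smaller size. Groups of 3 libraries were not examined for single libraries far from the others.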

How the results depend on the processing

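All 37 members were followed first. Of their 211 called values in the 9 comparisons, 152 kept direction and call with the length trend removed, 39 no longer passed and 20 reversed, 10 of them past the test, while 31 values passed that had not before. With library totals alone 166 kept both, 26 no longer passed and 19 reversed, 8 of them past the test. Removing the length trend also moved the median of all transcripts. The move was -0.055 between the strains, -0.10 and -0.17 in NADcapPro of xrn1-H41A and WT, and -0.14 in SPAAC of each. For NADcapPro over SPAAC it was 0.13 in xrn1-H41A and 0.09 in WT. Several reversed values, such as ATG38 in NADcapPro of WT (-0.003), were smaller than this shift, whose part was not tested. All 18 libraries in one fit reversed 1, and the other refits against no change, left-out libraries included, reversed 0. In a subset (members past 2-fold, the 3 highest and 3 lowest, and ATG1, ATG8, ATG9, ATG14 and ATG16 between the strains), 909 values under the alternatives kept their direction and their side of the threshold, 27 no longer passed and 4 reversed. The 4 were ATG2 (0.71 in xrn1-H41A and 0.35 in WT) and ATG26 (0.20 and 0.26) in SPAAC with the length trend removed. Counts of members past 2-fold moved as follows, and no share over all transcripts is given for these settings. With library totals alone they were 7 higher in the strain comparison (7 lower at adjusted p alone), 7 higher in NADcapPro of xrn1-H41A, 0 higher in SPAAC of WT, 0 lower in the NADcapPro interaction, and, for NADcapPro over SPAAC, 15 higher and 1 lower in xrn1-H41A and 9 higher and 1 lower in WT. In a test against 2-fold itself they were 1 higher in the strain comparison, 2 higher and 1 lower in NADcapPro of WT, 0 higher and 3 lower in SPAAC of WT, 3 lower in SPAAC of xrn1-H41A, 0 in each direction in the NADcapPro interaction, and 2 lower in xrn1-H41A and 3 lower in WT for NADcapPro over SPAAC. With the length trend removed they were 2 higher and 2 lower in NADcapPro of xrn1-H41A, 1 higher in that of WT, 1 higher and 0 lower in SPAAC of each strain, and 0 lower in the NADcapPro interaction. The interaction count of members lower was also 0 with DESeq2 and apeglm. For NADcapPro over SPAAC in xrn1-H41A, the count lower was 3 with at least 10 counts in every library, and all 18 libraries in one fit gave 7 higher and 2 lower. With each library left out in turn, the counts ranged between 0 and 1 for higher in SPAAC of xrn1-H41A, between 0 and 1 for lower in the NADcapPro interaction (0 without WT RNA-seq replicate 2, WT NADcapPro replicate 3, xrn1-H41A RNA-seq replicate 1 or xrn1-H41A NADcapPro replicate 3) and between 3 and 6 for lower in NADcapPro over SPAAC of xrn1-H41A (3 without NADcapPro replicate 1). Same-numbered libraries did not deviate together, with correlations between -0.20 and 0.15. This does not show whether they came from the same culture, since the noise of single libraries could hide a shared deviation. With the replicate block the strain comparison kept 4 members at least 2-fold higher and 1 lower, while members higher in SPAAC of WT numbered 2 in place of 3. Apart from the construction of each alternative, the cause of these moves was not tested.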
